A study of Mus musculus with 2 samples.

Results

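The let-7 microRNA genes that lie outside the miR-99 and miR-125 clusters were examined in heart tissue. They are Mirlet7a-1, Mirlet7f-1, Mirlet7d, Mirlet7b, Mirlet7c-2, Mirlet7g, Mirlet7i, Mirlet7f-2 and Mir98. These 9 genes, of 2202 annotated microRNA genes counted, were chosen by their GENCODE symbol and by having no miR-99 or miR-100 gene beside them, and the rule uses no measured value. The 2 libraries form 1 group, heart from aged female mice (18 to 20 months) of the F1 hybrid strain B6CASTF1/J (a C57BL/6J by CAST/EiJ cross), with no treatment named. Both came from total RNA, and the labels give them separate tissue records and separate biological replicate numbers but 1 shared donor record. The SD between them is thus the spread of these 2 libraries, which may be in part technical.

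MicroRNAs are cut from hairpin transcripts and guide Argonaute proteins to messenger RNAs that pair with the seed, the bases just after the 5′ end. The let-7 family was found as a timing gene in worms, is conserved in animals, rises as cells differentiate and is abundant in adult tissues, the heart among them. Mammals carry many let-7 genes, and the RNA-binding protein LIN28 blocks the maturation of let-7 precursors in embryonic cells.

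The 9 genes encode 8 different 5p arms, which are the usual guide strands. They are shown because they differ from each other by few bases, which sets how far reads of 1 gene can be told from those of another. The sequences are from RefSeq (GRCm38.p6), which held all 9 genes. Capitals mark the seed, bases 2 to 8.
let-7a-5p: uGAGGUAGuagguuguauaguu
let-7b-5p: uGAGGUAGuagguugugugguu
let-7c-5p: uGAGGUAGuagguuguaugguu
let-7d-5p: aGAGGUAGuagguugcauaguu
let-7f-5p: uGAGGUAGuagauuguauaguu
let-7g-5p: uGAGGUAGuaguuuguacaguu
let-7i-5p: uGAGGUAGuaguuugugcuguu
miR-98-5p: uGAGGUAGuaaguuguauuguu

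All 8 arms share the seed GAGGUAG. Among the 1738 mature entries in the RefSeq table, those with this seed carry 11 different names. Each arm is 22 nt long, and the arms differ from one another at 7 positions only. Relative to let-7a-5p, counted from 1 at its 5′ end, let-7f-5p has G12A, let-7c-5p has A19G and let-7b-5p has A17G and A19G. In let-7d-5p the changes are U1A and U16C, in let-7g-5p G12U and U18C, and in miR-98-5p G11A and A19U. The arm with the most changes from let-7a-5p is let-7i-5p, with G12U, A17G, U18C and A19U. Of the 28 pairs of arms, 3 differ at 1 base, namely let-7a with let-7c, let-7a with let-7f and let-7b with let-7c. The pair that differs most, let-7d with let-7i, differs at 6 bases.

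The genes lie in 5 loci of mm10. Mirlet7a-1 (chr13:48538179-48538272), Mirlet7f-1 (chr13:48537829-48537917) and Mirlet7d (chr13:48536012-48536114) lie in this order of transcription on the minus strand, in exonic sequence of the long noncoding RNA 6720427I07Rik. Mirlet7c-2 (chr15:85706603-85706697) and Mirlet7b (chr15:85707319-85707403) lie on the plus strand in exonic sequence of the noncoding transcript Lncppara. Mirlet7f-2 (chrX:151912346-151912428) and Mir98 (chrX:151913214-151913321) lie on the plus strand in an intron of Huwe1, which encodes a ubiquitin ligase. The other loci hold 1 gene each. Mirlet7g (chr9:106178840-106178927) lies on the plus strand in an intron of Wdr82, which encodes a subunit of a histone methyltransferase complex, and Mirlet7i (chr10:122985640-122985724) lies on the minus strand in D630033A02Rik, where it is exonic in 1 spanning transcript and intronic in another. No other microRNA gene of the annotation lies within 10000 bp of a member on the same strand.

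The libraries held 3383676 (replicate 1) and 3676084 (replicate 2) reads on the sense strand of microRNA genes. Levels are given as counts per 1000000 of these totals (CPM), on which 3 counts are 0.887 and 0.816 CPM. A further 43.9% and 43.2% of all reads mapped to more than 1 place and were assigned to no gene. Of the 5 striated muscle markers, 4 had 10 or more counts in each library, the heart muscle microRNAs Mir208a (1418 ± 241 CPM, SD, n = 2) and Mir499 (3772 ± 289.9 CPM) being the highest. Mir208b was at 59.1 CPM in replicate 1 and 17.1 in replicate 2, Mir1a-2 at 82.2 and 61.8, and Mir133a-1 had 5 and 17 counts. All marker values leave out multimapping reads, so a low one does not show that the microRNA was scarce. Of the 6 neuronal markers, Mir9-3 had 3 counts in each library and the others had 0, which allows up to 3 counts at this depth, and the liver microRNA Mir122 was at 20.5 ± 4.81 CPM. Markers of other cells of the heart differed between the libraries to unequal degrees and in both directions. Mir126a of endothelium was at 129043 CPM in replicate 1 and 57714 in replicate 2, and the red cell markers Mir451a and Mir144 summed to 2810.3 and 1058. The white blood cell markers Mir150, Mir142 and Mir223 summed to 3048 and 9382. The smooth muscle markers were at 33589 and 43744 for Mir143 and at 2049.5 and 7078 for Mir145a. The fibroblast markers summed to 5224 and 4457, with Mir214 at 3217 and 695, Mir21a at 2002 and 3756 and Mir199a-2 at 6.21 and 5.98. Their part in the let-7 values was not tested.

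Together the 9 genes took 749736 of the sense counts in replicate 1 and 909519 in replicate 2. This is 22.2% (Wilson 95% interval 22.1 to 22.2) and 24.7% (24.7 to 24.8), or 23.4% ± 1.83 (SD, n = 2). These intervals cover counting error only, since reads without molecular identifiers are not independent molecules. As a share of all reads, multimapping and unmapped ones included, the members took 8.01% and 8.62%. Mirlet7b, Mirlet7i, Mirlet7g and Mirlet7d held 94.2% of the members' counts in replicate 1 and 95.1% in replicate 2, and the other 5 genes held 5.80% and 4.91%.

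Mirlet7b was counted 205471 and 276438 times, at 60724 CPM in replicate 1 and 75199 in replicate 2. Its mean of 67962 ± 10235 CPM was the third highest of all microRNA genes in these libraries. Mirlet7i was at 65329 and 69311 CPM, with a mean of 67320.0 ± 2816, the fourth highest of all. Mirlet7b was below Mirlet7i in replicate 1 and above it in replicate 2, and the gap of 642 CPM between their means is far smaller than the SD of Mirlet7b. Their order was therefore not resolved. Mirlet7g followed at 57792 and 62573 CPM (60183 ± 3380.4), below both in each library.

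Mirlet7d was at 24878 and 28181 CPM, with a mean of 26529.7 ± 2335. This is lower than Mirlet7g by 2.32-fold in replicate 1 (exact 95% interval 2.30 to 2.34) and 2.22-fold in replicate 2 (2.20 to 2.24). The next member, Mirlet7f-2, was at 8211 and 7033 CPM (7622 ± 833). It was the only member with a lower CPM in replicate 2 than in replicate 1, the other 8 being higher there.

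The lower members spanned about an order of magnitude. Mirlet7c-2 was at 1822 and 2086 CPM (1954 ± 187) and Mir98 at 1706 and 1755 (1730.5 ± 35.3). Their gap of 224 CPM only just exceeded the larger SD, although Mirlet7c-2 was the higher one in both libraries. Mirlet7a-1 was at 870.4 and 1011 CPM (941 ± 99.5). The lowest member was Mirlet7f-1, with 820 and 974 counts, 242 and 265 CPM (254 ± 16.0), ranking 96 among all genes. Of the 8 gaps between neighbours in this order, the 7 other than that of Mirlet7b and Mirlet7i were larger than the larger SD of the pair and kept their direction in both libraries.

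**Figure D1:**
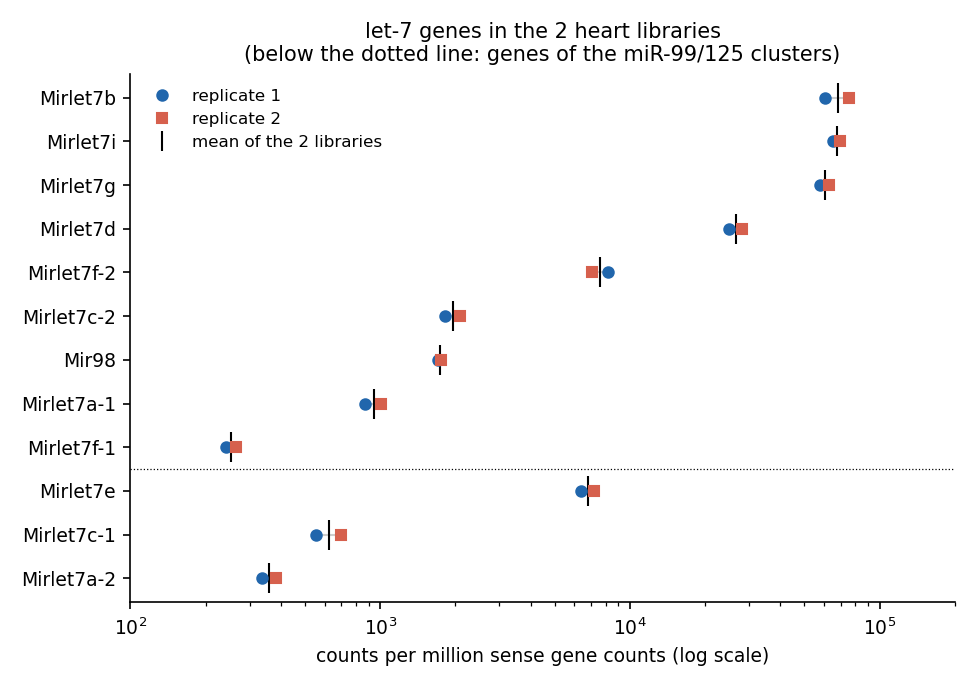
Level of each let-7 gene in CPM (log scale) in replicate 1 (circles) and replicate 2 (squares), with the mean as a vertical bar; the 3 genes under the dotted line belong to the miR-99 and miR-125 clusters. Mirlet7b, Mirlet7i and Mirlet7g sit together near the top, Mirlet7f-1 lies lowest at 254 CPM, and only in Mirlet7f-2 does the circle lie right of the square.

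Genes outside the 9 were also set beside the top members. Among these, by the smallest summed log2 difference over the 2 libraries, Mir23b was nearest to Mirlet7b (54440.5 and 73993 CPM), Mir23a to both Mirlet7i and Mirlet7g (53249 and 68701 CPM), and Mir26b to Mirlet7d (26223 and 31504 CPM). Mirlet7i was closer to the member Mirlet7b (summed difference 0.22) than to Mir23a (0.31). With 2 libraries this is likeness of level and shows no shared pattern.

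Summed by locus, the pair Mirlet7c-2 and Mirlet7b gave 29.7% ± 2.13 of the members' counts (28.2% and 31.2%). The single genes Mirlet7i and Mirlet7g gave 28.7% ± 1.04 and 25.7% ± 0.560. The 3-gene locus of Mirlet7a-1, Mirlet7f-1 and Mirlet7d gave 11.8% ± 0.124 (11.7% and 11.9%), and the X-linked pair Mirlet7f-2 and Mir98 gave 4.01% ± 0.653 (4.48% and 3.55%). The locus with the most genes was thus not the one with the most assigned reads. Multimapping reads are left out, and the 5p arms of Mirlet7a-1, Mirlet7f-1, Mirlet7c-2 and Mirlet7f-2 each lie in 2 annotated hairpins. The shares of all let-7 reads by locus may therefore differ from these. Those of the Mirlet7c-2/b and Mirlet7i loci lay within 1 SD of each other here.

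Genes of 1 locus are annotated in the same host transcript, yet their counts differed widely. Ratios of these counts do not depend on how the libraries are scaled, but they leave out reads that map to more than 1 place. Mirlet7b exceeded Mirlet7c-2, 622 bp upstream, by 33.3-fold in replicate 1 (exact 95% interval 32.5 to 34.2) and 36.0-fold in replicate 2 (35.2 to 36.9), or 34.7 ± 1.92. The intervals do not overlap, so this ratio moved between the libraries by more than counting error, though by 1.08-fold only. The 2 hairpins are shown because they make up the pair with the highest combined level. Capitals mark the annotated 5p and 3p arms.
Mirlet7b: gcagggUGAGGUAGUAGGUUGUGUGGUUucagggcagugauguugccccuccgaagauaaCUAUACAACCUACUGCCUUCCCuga
Mirlet7c-2: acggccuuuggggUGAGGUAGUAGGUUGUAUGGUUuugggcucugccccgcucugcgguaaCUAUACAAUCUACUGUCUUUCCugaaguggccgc

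Their 5p arms differ at 1 base. The let-7c 5p arm is also encoded by Mirlet7c-1, a gene of a miR-99 and miR-125 cluster, and the 3p arm of Mirlet7c-2 is also that of Mirlet7a-1. Each arm of Mirlet7b is found in 1 annotated hairpin.

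In the chromosome 13 locus the last gene had by far the highest count. The 5p arms of Mirlet7a-1 and Mirlet7f-1 each lie in 2 annotated hairpins, and that of Mirlet7d lies in 1. Multimapping reads entered no gene count, so the ratios are of assigned reads and do not give those of the mature microRNAs. Mirlet7d exceeded Mirlet7a-1 by 28.6-fold in replicate 1 (exact 95% interval 27.6 to 29.7) and 27.9-fold in replicate 2 (27.0 to 28.8), or 28.2 ± 0.504. It exceeded Mirlet7f-1 by 103-fold (95.8 to 110.1) and 106-fold (99.9 to 113), or 105 ± 2.62, the largest ratio within a locus. Mirlet7a-1, 262 bp from Mirlet7f-1, exceeded it by 3.59-fold (3.32 to 3.89) and 3.82-fold (3.56 to 4.10). In all 3 ratios the intervals of the libraries overlap, so no difference beyond counting error was detectable.

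In the X-linked pair the first gene was the higher one. Mirlet7f-2 exceeded Mir98 by 4.81-fold in replicate 1 (4.68 to 4.95) and 4.01-fold in replicate 2 (3.90 to 4.12), or 4.41 ± 0.571, and these intervals do not overlap. Mirlet7f-2 had fewer counts in the deeper library (27783 against 25855), whereas Mir98, 786 bp downstream in the same intron, had more (5771 against 6453).

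**Figure D2:**
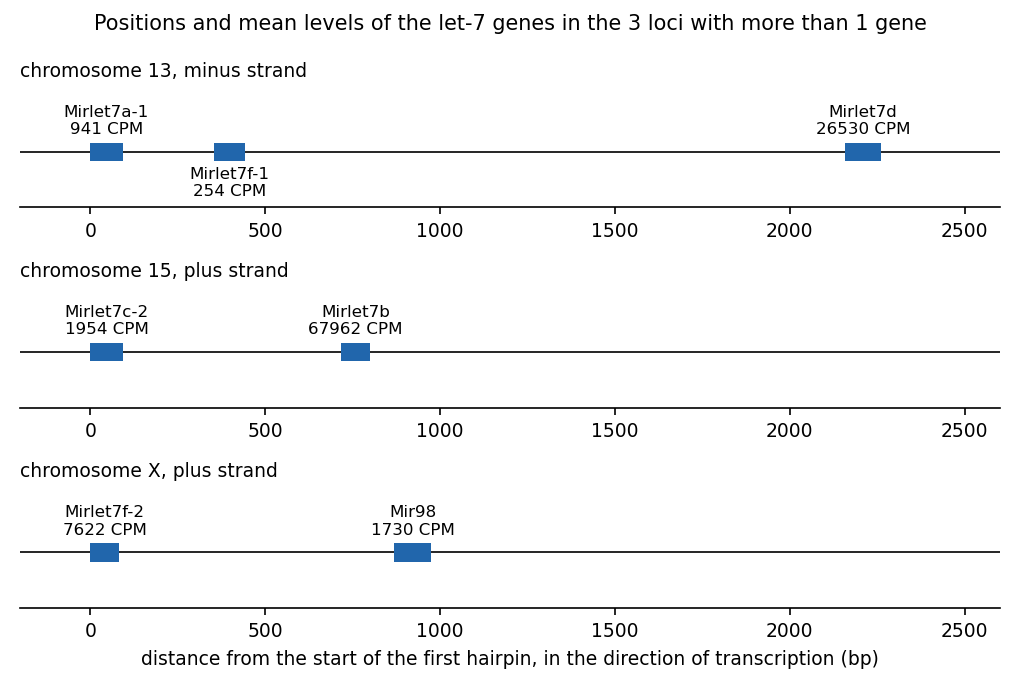
Maps to scale of the 3 loci with more than 1 gene; boxes are hairpins, the horizontal axis is the distance in bp from the start of the first hairpin in the direction of transcription, and the numbers are mean CPM. In the upper 2 loci the last hairpin has the highest level, and in the X-linked locus the first has.

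The 5p arm of let-7f is encoded by Mirlet7f-1 and Mirlet7f-2, that of let-7a by Mirlet7a-1 and the clustered Mirlet7a-2, and that of let-7c by Mirlet7c-2 and the clustered Mirlet7c-1. The arms are printed with the bases around them to show what separates the 2 loci of each pair. Capitals mark the 5p arm.
Mirlet7f-2: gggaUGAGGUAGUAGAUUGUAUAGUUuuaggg
Mirlet7f-1: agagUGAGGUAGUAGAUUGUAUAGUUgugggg
Mirlet7a-1: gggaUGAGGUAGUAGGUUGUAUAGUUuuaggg
Mirlet7a-2: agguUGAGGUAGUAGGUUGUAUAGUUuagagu
Mirlet7c-2: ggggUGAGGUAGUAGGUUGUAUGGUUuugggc
Mirlet7c-1: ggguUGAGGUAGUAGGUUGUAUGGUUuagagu

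A read that holds just the arm fits both loci of its pair, and multimapping reads entered no gene count. The let-7f loci differ at the first base on either side of the arm. The let-7a loci differ at the first base before it and share 1 base after it, and so do the let-7c loci. If reads were matched without mismatches, the counts of these 6 genes rest on reads that reach past the shared bases or come from elsewhere in the hairpin, and they leave out an unknown number of reads that fit both loci. The files do not say which loci the multimapping reads came from.

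With that limit, Mirlet7f-2 exceeded Mirlet7f-1 by 33.9-fold in replicate 1 (exact 95% interval 31.6 to 36.4) and 26.5-fold in replicate 2 (24.9 to 28.3), intervals that do not overlap. Mirlet7a-1 exceeded Mirlet7a-2 by 2.59-fold (2.42 to 2.78) and 2.63-fold (2.48 to 2.80), or 2.61 ± 0.0312. Mirlet7c-2 exceeded Mirlet7c-1 by 3.28-fold (3.12 to 3.46) and 2.997-fold (2.87 to 3.14), or 3.14 ± 0.203. In each pair with a gene of the miR-99 and miR-125 clusters, the gene outside them had the higher count in both libraries.

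**Figure D3:**
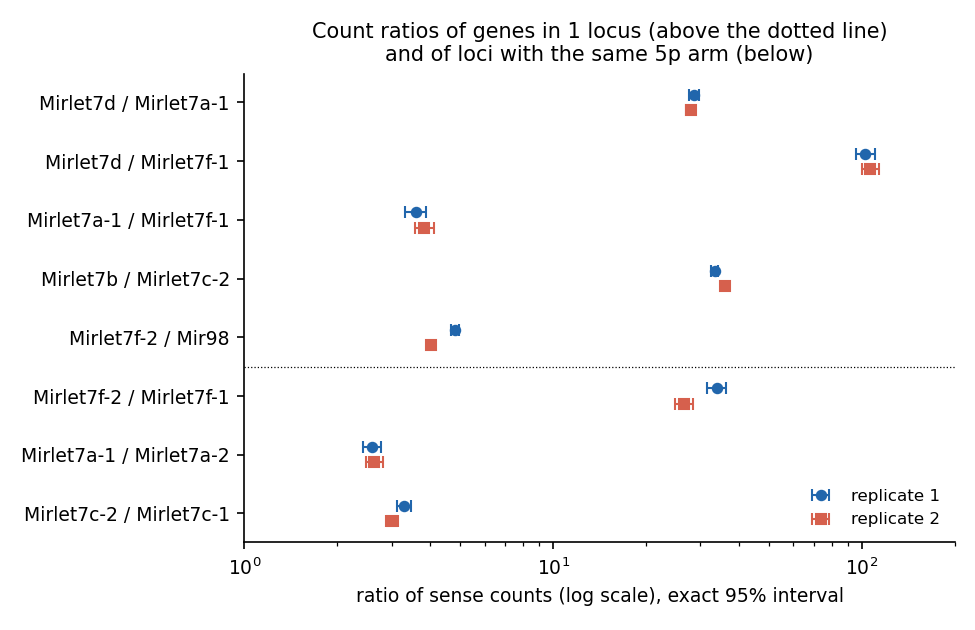
Ratios of sense counts (log scale) of genes in 1 locus, above the dotted line, and of loci that encode the same 5p arm, below it, in replicate 1 (circles) and replicate 2 (squares) with exact 95% intervals. The ratios run from 2.59 for Mirlet7a-1 over Mirlet7a-2 to 106 for Mirlet7d over Mirlet7f-1, and the replicates separate clearly in the 2 ratios that have Mirlet7f-2 on top.

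Summed over all loci that encode the same 5p arm, let-7f had 7876 ± 817 CPM, let-7c 2580 ± 287 (2 loci each) and let-7a 1301 ± 133. By this sum let-7a, whose arm the other arms are set against above, was the lowest of the 9 family names, below miR-98 at 1730.5. The sums leave out the multimapping reads, which numbered 5.48 for each member count in replicate 1 and 5.01 in replicate 2, so they do not show the order of the mature microRNAs in the tissue.

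In summed counts the 9 genes exceeded the 3 clustered let-7 genes by 30.6-fold in replicate 1 and 29.9-fold in replicate 2 (30.2 ± 0.478). Multimapping reads are left out on both sides, and the 5p arms of Mirlet7a-2 and Mirlet7c-1 are each shared with a member. The ratio therefore does not give the part of the clusters in all let-7 reads. Mirlet7e, at 6774 ± 593 CPM, was the highest clustered gene and by its mean lay between Mirlet7f-2 and Mirlet7c-2. It was below Mirlet7f-2 in replicate 1 (6354 against 8211 CPM) and above it in replicate 2 (7193 against 7033), so their order was not resolved. Mirlet7c-1 was at 625 ± 99.98 CPM and Mirlet7a-2 at 360 ± 33.8, both between Mirlet7a-1 and Mirlet7f-1. Further genes carry a let-7 name or seed. Mir7j, whose seed GAGGUAU differs from that of let-7, was at 49.0 ± 4.54 CPM, Mir7k had 1 count in each library and Mir1961 had none, which allows up to 3 counts.

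Sequence shared with other hairpins was measured for all annotated genes. Of the members, Mirlet7a-1 and Mirlet7c-2 share 26 nt with each other, the 3p arm and a few bases on either side of it, and Mirlet7f-1 and Mirlet7f-2 share 22 nt. The longest stretch that recurs elsewhere is 19 nt for Mirlet7b, Mirlet7g and Mirlet7i, 17 nt for Mir98 and 14 nt for Mirlet7d. The 4 members with a shared stretch of 20 nt or more had means of 254 to 7622 CPM (median 1447), and the 5 without had means of 1730.5 to 67962 CPM (median 60183). The ranges overlap, because Mir98 lies below Mirlet7f-2 and Mirlet7c-2, and the contrast depends on the length chosen. At 18 nt or more, 7 members had a shared stretch, at 254 to 67962 CPM (median 7622), and the 2 without were Mir98 at 1730.5 and Mirlet7d at 26529.7 CPM. Over all annotated genes, 73 of the 1087 with a shared stretch of 20 nt or more had 10 or more counts in each library (6.72%, median 72.0 CPM). So did 243 of the 1115 without (21.8%, median 54.9 CPM). The part of multimapping in the levels of these members was not tested.

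**Figure D4:**
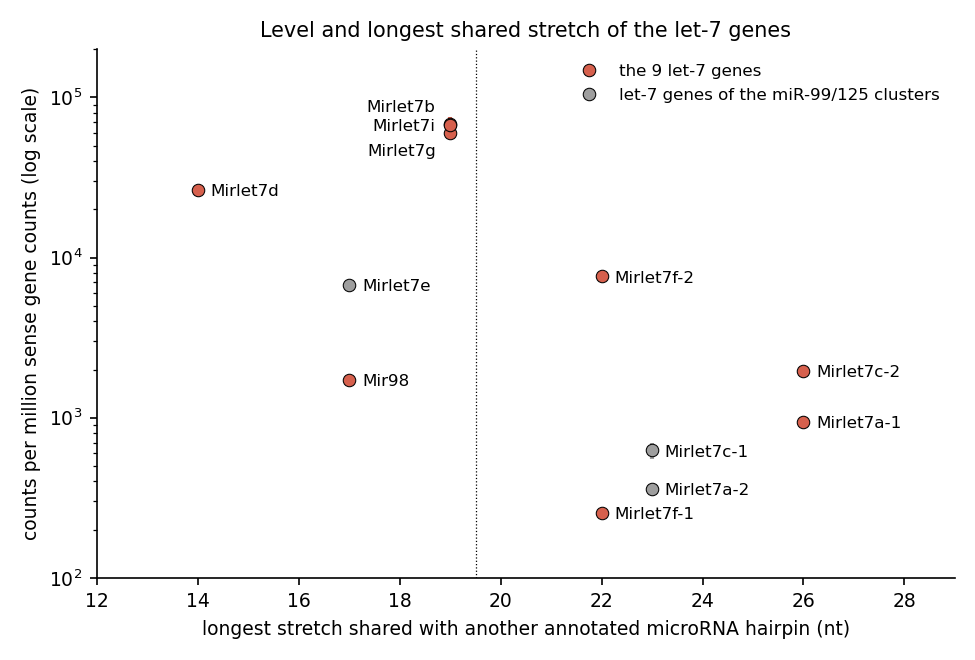
Mean level in CPM (log scale) against the longest stretch, in nt, that a hairpin shares with another annotated microRNA hairpin, for the 9 genes and the 3 clustered let-7 genes; bars, mostly hidden by the points, span the 2 libraries, and the dotted line separates stretches under 20 nt from longer ones. The 6 genes right of the line lie at 254 to 7622 CPM, and the 6 left of it at 1730.5 to 67962 CPM.

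LIN28 is known to bind the sequence GGAG in the loop of let-7 precursors. On the transcript strand, GGAG was found between the annotated arms of 6 of the 9 hairpins, those of Mirlet7a-1, Mirlet7f-1, Mirlet7d, Mirlet7g, Mirlet7i and Mirlet7f-2. Mirlet7b, Mirlet7c-2 and Mir98 do not have these letters there. Of all 644 hairpins with both arms in the RefSeq table, 52 have it (8.07%). Members with the letters ranged from 254 to 67320.0 CPM and those without from 1730.5 to 67962 CPM, so the ranges of the 2 sets overlap over most of their length. The medians were 17076 CPM for the 6 genes with the letters and 1954 CPM for the 3 without. These levels leave out multimapping reads, and a link between the letters and the levels was not tested.

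The 2 libraries were compared gene by gene, which compares these libraries and not conditions. The two-sided exact binomial test used sense counts and effective library sizes by TMM, edgeR's trimmed-mean scaling, with Benjamini-Hochberg adjustment over the 316 genes with 10 or more counts in each library and a threshold of 0.05. All 9 members were tested and 7 were called, beside 60.4% of all genes tested. Of these, 4 members were called higher in replicate 2 (33.2% of all genes) and 3 lower (27.2% of all genes). This balance turned with the settings, with 6 higher and 1 lower on library totals, and 1 higher and 4 lower both on DESeq2 size factors and with a minimum of 100 counts. With counts this high, small differences pass the test, and among the 94 genes with at least the counts of Mirlet7f-1, 90.4% were called.

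The differences of the members were small in size. The median absolute log2 ratio was 0.07 over the 9 members and 0.45 over all genes tested, and 0.33 over the 94 genes with at least the counts of Mirlet7f-1. The median signed log2 ratio of replicate 2 over replicate 1 was 0.00 for the members and 0.05 for all genes. Members ranged from -0.35 to 0.18, a span of absolute values that holds 130 of the 316 genes (41.1%).

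Mirlet7f-2 had the largest difference, a log2 ratio of -0.35 (adjusted p = 1.09e-169 in the exact binomial test). Mirlet7b was next, at 0.18, with an adjusted p too small for the software to represent. In all 6 versions of this comparison, which varied the scaling, the minimum count and the strand column, Mirlet7f-2 stayed between -0.40 and -0.22 and Mirlet7b between 0.13 and 0.31, and both were called each time. The other calls were of small differences. Mirlet7a-1 was at 0.09, Mirlet7c-2 at 0.07 and Mirlet7d at 0.06, and none of these 3 was called with DESeq2 size factors or a minimum of 100 counts. Mirlet7i was at -0.04 and Mir98 at -0.08, and both changed sign with library totals, a scaling that raised the median of all genes from 0.05 to 0.18. Mirlet7g (-0.01, adjusted p = 0.0653 in the exact binomial test) and Mirlet7f-1 (0.00, adjusted p = 0.994) were not called. Of the 6 versions, Mirlet7g was called in 4, higher in replicate 2 with library totals (0.115) and lower with DESeq2 size factors (-0.0636), a minimum of 100 counts (-0.0518) and the either-strand column (-0.0118), so its direction was not resolved. Mirlet7f-1 was called in 0 of the 5 versions that tested it.

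**Figure D5:**
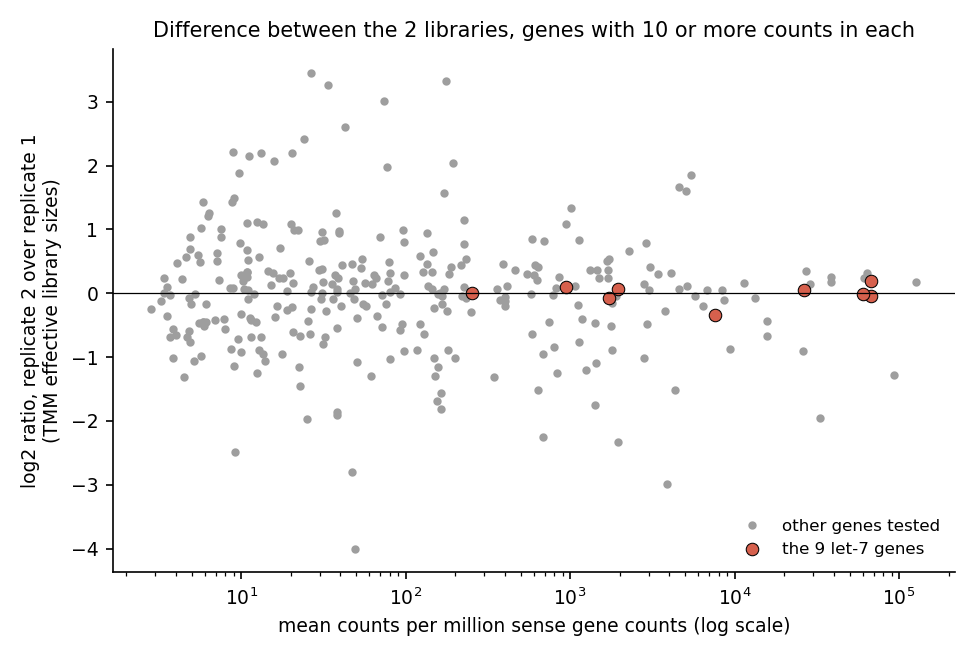
Log2 ratio of replicate 2 over replicate 1 on TMM effective library sizes against the mean level in CPM (log scale) for the 316 genes with 10 or more counts in each library, with the 9 let-7 genes as large points. The let-7 genes lie between -0.35 and 0.18, with Mirlet7f-2 as the lowest of them.

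Reads of the members came almost wholly from the annotated strand. On the opposite strand there were 8 reads in replicate 1 and 9 in replicate 2, or 0.00107% and 0.000990% of the members' reads on both strands. Over all microRNA genes the antisense column held 21.5% and 18.8%. That column can count again a read that is sense for another gene over the same bases. The totals of the either-strand column, 2458090 and 2824159, were below the sense totals. These percentages thus do not measure reads off the annotated strands and set no baseline for the members. In the deposited column for reads on either strand, Mirlet7f-1 was at 0 in both libraries. Gm24111, a microRNA gene annotated on the opposite strand over the same bases, had 0 sense counts and as many antisense counts as Mirlet7f-1 had sense counts.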

How the data were processed

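MicroRNA-seq libraries of mouse heart were analysed (n = 2, 1 group). For each microRNA gene, the deposited tables hold raw counts in 3 columns without headers, which by their values are sense reads, antisense reads and, in the first column, reads of either strand. Per the readme text of the libraries, the authors used assembly mm10 with GENCODE M21. The aligner, the counter and the mismatches allowed were not given in the sources used here. How variants of CAST/EiJ affect counts made on mm10 was not tested. Unmapped reads were 14.9% and 16.2% of all reads, multimapping reads 43.9% and 43.2%, reads without a feature 5.07% and 5.75% and ambiguous reads 0% in the sense column. These 4 rows stayed out of library sizes and tests.

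All 2202 identifiers matched GENCODE M21. Sense counts were used, with CPM on their totals of 3383676 and 3676084. Ratios have exact 95% intervals from the binomial split of counts, and shares have Wilson 95% intervals. There is no contrast between groups, so edgeR's quasi-likelihood test was not run. Each gene's counts in the libraries were compared by an exact binomial test (two-sided) on TMM sizes from edgeR 4.0.16, with DESeq2 1.42.0 size factors, library totals, other minimum counts and the either-strand column as alternatives. A stretch counted as shared at 20 nt or more on either strand of another hairpin, overlapping loci left out.

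The rule for the members uses names and positions only, but the members, the lists and the tests were chosen with earlier results of these data known. The rule for named genes takes the 9 members, the other genes of the family or seed, microRNA genes within 10000 bp, the gene nearest in level to each of the 4 highest members and the cell type markers. Scripts ran in Python 3.11.15 with scipy 1.17.1, pandas 2.3.3, numpy 2.4.6 and matplotlib 3.10.9, and in R 4.3.3.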

Additional observations from a re-analysis of the deposited data

Results flagged for a closer look

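Antisense reads lie outside the comparisons above. Gm24111, on the strand opposite Mirlet7f-1, had 820 antisense reads in replicate 1 and 974 in replicate 2, above the 3 counts that a count of 0 allows. These numbers equal the sense counts of Mirlet7f-1. Gm24111 spans the bases of Mirlet7f-1 and had 0 sense counts, so a read that is sense for Mirlet7f-1 is antisense for Gm24111. The 820 and 974 are thus no signal apart from the Mirlet7f-1 counts. Mirlet7b had 7 antisense reads in replicate 1 and 9 in replicate 2, beside 205471 and 276438 sense counts.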

How the results depend on the processing

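The members' share of 23.4% of sense gene counts was 31.3% in the column for reads on either strand, 8.31% of all reads, and 30.1% without the 2 genes of highest mean. The 31.3% has a smaller denominator, since the totals of that column (2458090 and 2824159) were below the sense totals (3383676 and 3676084). In the either-strand column the members exceeded the clustered let-7 genes by 238.7-fold in place of 30.2-fold, since Mirlet7e is at 0 there, as is Mirlet7f-1, whose ratios could not be computed in that column. The 9 members kept their order without replicate 1, and 7 kept their place without replicate 2, where Mirlet7i passed Mirlet7b. With library totals, 6 members were called higher and 1 lower in replicate 2, the median absolute log2 ratio of the members was 0.18, and Mirlet7g (0.115), Mirlet7i (0.085) and Mir98 (0.042) turned to higher in replicate 2. With DESeq2 size factors, 1 member was called higher and 4 lower, and Mirlet7f-1 was at -0.0496. With a minimum of 1 count, Mirlet7g was at 0.00528. With a minimum of 100 counts, 65 genes were called higher and 67 lower, 1 member higher and 4 lower, and Mirlet7f-1 was at -0.0377. At 18 nt, 7 members had a shared stretch in place of 4. Where no cause is named, the cause was not tested. Of all values under an alternative, 151 stayed on the same side or within the spread, 39 moved, 6 reversed, 3 became stronger and 6 weaker. The 151 include the levels, sums, shares and ratios without 1 replicate, whose label was fixed in advance. The SD of 2 values always exceeds the distance of either from their mean. The tally is therefore no measure of how stable the results are. The mean levels of all 9 members stayed within 1 SD on TMM sizes. These sizes were 3241621, below the total of replicate 1, and 3837178, above that of replicate 2. A mean over both libraries could thus move little. No paired analysis was possible because there is 1 group. Depth did not limit the members, all of which had 820 counts or more, and the part of multimapping reads was not tested.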
